A study of Mnemiopsis leidyi with 40 samples.

Results

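Of 16548 gene models of the comb jelly Mnemiopsis leidyi, 37 had their highest level in embryos of 11 to 13 h and were lower again in embryos of 20 h. They were chosen from the measured levels themselves. Reads were summed over neighbouring times into 8 blocks (0-1, 2-3, 4-5, 5.5-6.5, 7-7.5, 8-9, 11-13 and 20 h) and scaled to the sum of reads in gene models (counts per 1e6 reads, CPM). A member had its highest block at 11-13 h, with at least 30 CPM there, at least 8 times its 0-1 h level and at most 1/3 of that peak left at 20 h. Because these block levels chose the genes, they are given below as a description with no test. A further 293 genes met every condition except that more than 1/3 of the peak was left at 20 h. They serve as the comparison set.

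The study sequenced single embryos by CEL-Seq, a method that tags each sample with a barcode and reads the 3' ends of its messenger RNAs. It sampled 20 times between 0 and 20 h with 2 embryos each, 40 in all, and the labels name no strain, treatment or spawning. At each time 1 embryo (replicate 1) was in a library pool with Illumina index 6 and the other (replicate 2) in a pool with index 12, here pool 6 and pool 12. The 11-13 h block thus holds 6 embryos, the 0-1 h block 4 and the 20 h block 2. The 38 libraries of the blocks held 264033 to 4511124 reads in gene models. The 10 h replicate 1 library held 3808, so that 3 reads there stand for 788 CPM.

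Ctenophores develop quickly and directly. After a fixed pattern of cleavage and gastrulation, the embryo forms its comb rows (plates of fused cilia that beat for swimming), pharynx, tentacles and apical sense organ, and hatches as a swimming juvenile called a cydippid. The deposited table names genes only by model ID, and 0 of the 16548 IDs matched the RefSeq gene table used here, so no name, protein or function is given for any member. In whole embryos, fewer cells of a type and less RNA per cell cannot be told apart. Because CEL-Seq reads only transcript ends, CPM was not divided by transcript length, and a comparison of levels between 2 genes also carries how well each model covers its 3' end.

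The 37 genes ranged from 30.0 to 8193 CPM at 11-13 h, with a median of 81.6 CPM. At this stage 10 of them had at least 200 CPM, 7 had 100 to 200, 6 had 50 to 100 and 14 had less than 50. The 11-13 h values rest on 417 to 113729 reads per gene, the 20 h values on 0 to 6119 with a median of 37. A single gene, ML218818a, made up 59.7% of the summed block level of 13721 CPM. In 0-1 h embryos 9 members had at most 3 reads in all 4 embryos together. The 36 others summed to 49.0 to 79.9 CPM per embryo at 0-1 h, to between 1227 and 4078 CPM at 8-9 h and to between 4793 and 6560 CPM at 11-13 h. They summed to 966 and 1205 CPM in the 20 h embryos. Each of the 6 embryos of 11-13 h therefore lay above each 8-9 h embryo and each 20 h embryo in this sum, which the choice of the genes favours.

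**Figure D1:**
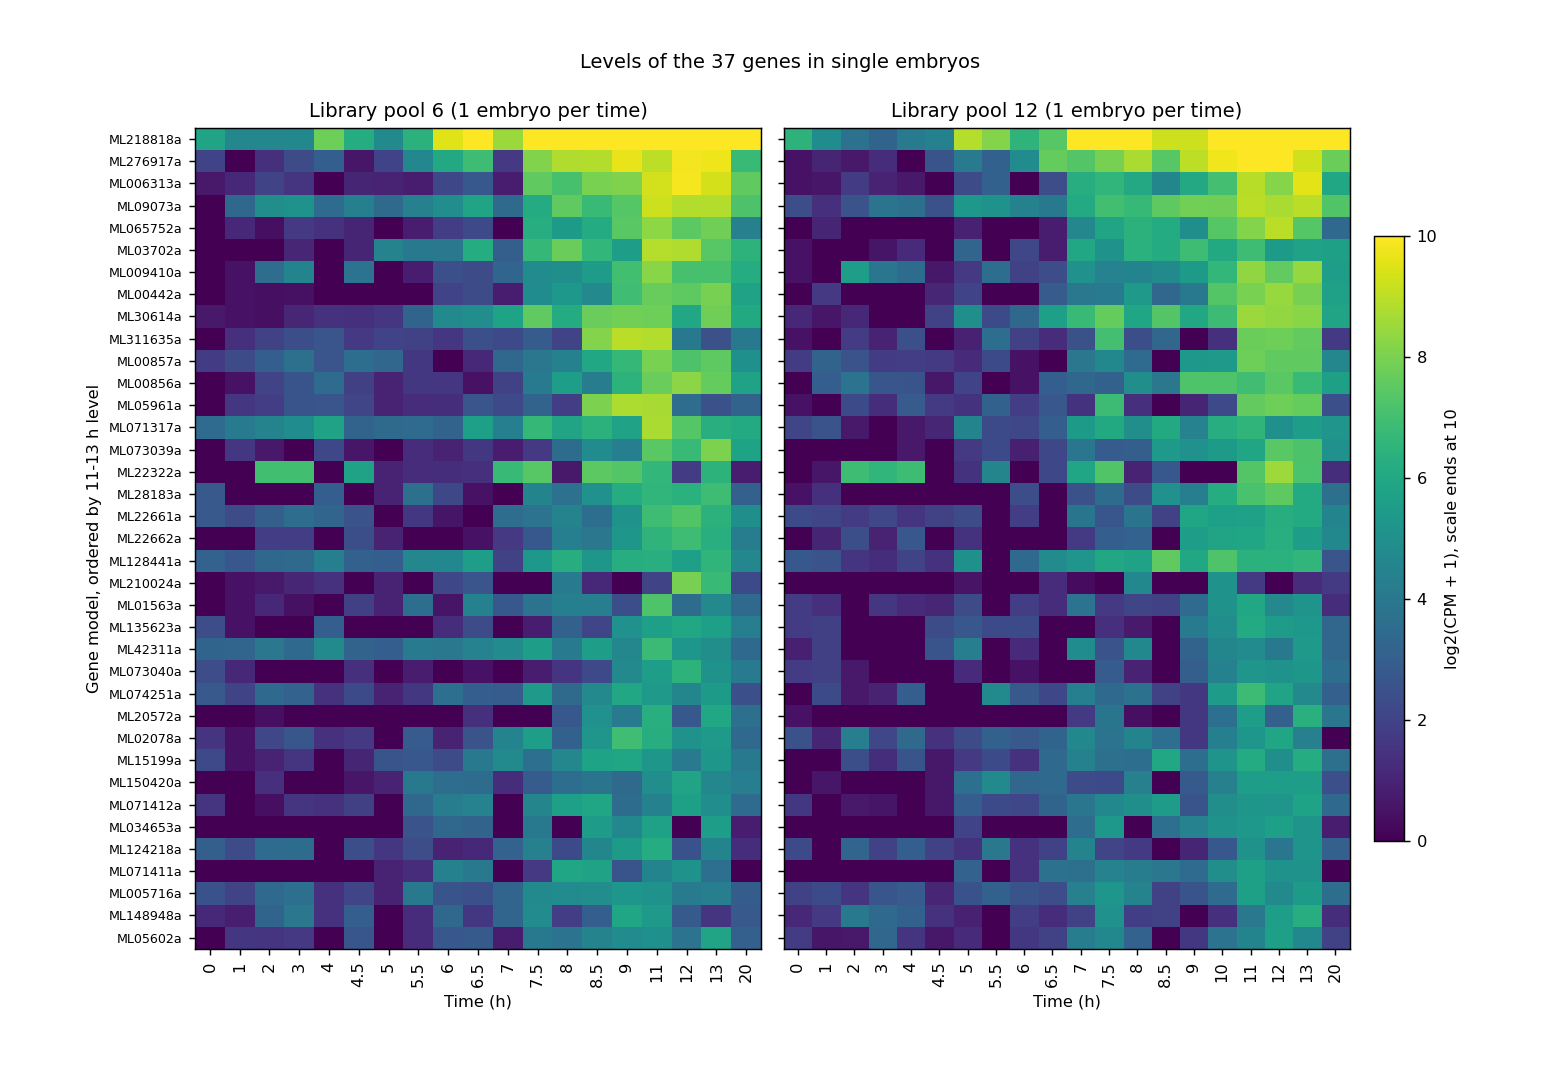
Level of each of the 37 genes (rows, ordered by 11-13 h block level) in each embryo (columns, by time in h) of library pool 6 on the left and pool 12 on the right, as log2(CPM + 1) on a colour scale that ends at 10. The 10 h column of pool 6 is left out because that library holds 3808 reads. Most rows are dark up to 6.5 h, brightest at 11 to 13 h and darker again at 20 h, and some rows switch between single embryos.

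The most abundant member, ML218818a, measured 15103, 12372 and 9134 CPM in the pool 6 embryos of 11, 12 and 13 h. In the pool 12 embryos of these times it measured 2595, 1875 and 2885 CPM. At 20 h it measured 2909 CPM in pool 6 and 1639 CPM in pool 12. Every pool 6 embryo of 11 to 13 h was thus well above its 20 h embryo, while all 3 pool 12 embryos lay between the 20 h embryos of both pools. It met the rule in pool 6 taken alone and did not in pool 12 alone.

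The next most abundant genes behaved more evenly. ML276917a measured 508 to 1100 CPM over the 6 embryos of 11-13 h (median 876), and 110 and 213 CPM at 20 h. ML006313a measured 286 to 919 CPM (median 645), and 189 and 63.2 CPM at 20 h. ML09073a was the steadiest member at its peak, with 426 to 606 CPM (median 479) and 145 and 157 CPM at 20 h. In each of these genes the lowest embryo of 11-13 h was above both 20 h embryos. ML065752a fell furthest among the 8 most abundant members, from 164 to 502 CPM (median 254) to 19.3 and 9.67 CPM. ML009410a measured 134 to 337 CPM (median 243), and 71.3 and 48.3 CPM at 20 h. ML00442a measured 182 to 347 CPM (median 247), and 53.5 and 51.3 CPM at 20 h. These genes too had no overlap between the 2 ages. ML03702a did overlap: it ranged from 42.4 to 475 CPM at 11-13 h, with the 3 pool 6 embryos highest, and measured 88.4 and 49.8 CPM at 20 h.

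Across the 37 genes, 26 had all 6 embryos of 11-13 h above both of 20 h, beside 5.42% of the 14596 gene models with a read. The rule used this contrast, so nothing is read from that share. The fold from 20 h up to 11-13 h had a median of 5.08 over the members. The largest was that of ML22322a, at 117-fold from 3 reads at 20 h (95% interval 39.9 to 567.5, for counting error only). ML034653a had 2 reads at 20 h and a ratio of 47.3 (95% interval 13.0 to 392). ML071411a had 0 reads at 20 h, and with 3 reads over both 20 h embryos as the floor it was at least 28.1-fold higher at 11-13 h. The next were ML05961a at 29.5-fold, ML311635a at 22.7-fold and ML210024a at 22.1-fold. Of these 6 genes, ML071411a and ML22322a had all 6 embryos of 11-13 h above both 20 h embryos. The other 4 overlapped because 1 or more embryos of 11-13 h were as low as those of 20 h. In ML22322a the gap was one of few reads. Its lowest embryo of 11-13 h had 7 reads (2.36 CPM) and the higher 20 h embryo 2 reads (1.49 CPM).

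In 36 of the 37 genes the 20 h block was above the 0-1 h block, beside 293 of 293 in the comparison set and 1564 of the 3441 genes with at least 30 CPM at 11-13 h (45.5%). The rule used both blocks, so nothing is read from these shares. The exception, ML071411a, had 0 reads in both. The highest ratios of 20 h to 0-1 h belonged to ML03702a, with 69.1 CPM at 20 h against 1 read at 0-1 h (ratio 587, 95% interval 104 to 23327), and to ML009410a, with 59.8 CPM against 2 reads (ratio 254, 95% interval 69.3 to 2117). ML006313a followed with a ratio of 178 (95% interval 81.1 to 490). The lowest were those of ML124218a at 1.22 (95% interval 0.572 to 2.45), ML42311a at 1.84 (1.07 to 3.08) and ML074251a at 2.02 (1.01 to 3.94). For 4 members 20 h and 0-1 h were not distinguishable at this depth: the intervals of ML124218a, ML22322a (0.761 to 497) and ML034653a (from 0.593, with no upper limit) include a ratio of 1, and ML071411a had no read at either end. These intervals cover counting error only, and reads are not known to be independent molecules.

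The genes did not first reach 1/4 of their 11-13 h level in the same block. The first block to reach 1/4 of the 11-13 h level was 2-3 h for 4 of them (ML22322a, ML124218a, ML005716a and ML148948a), 5.5-6.5 h for 4 (ML128441a, ML150420a, ML071411a and ML071412a), 7-7.5 h for 8, 8-9 h for 9 and 11-13 h itself for 12. This block does not mark a lasting start. From 2-3 h to 5.5-6.5 h, ML22322a fell from 118 to 2.01 CPM and ML148948a from 11.7 to 3.41 CPM. ML124218a fell from 8.50 to 2.31 CPM and ML005716a from 7.98 to 6.32 CPM. ML150420a fell from 11.2 CPM at 5.5-6.5 h to 3.94 CPM at 7-7.5 h. By 7-7.5 h, 16 of 37 (43.2%) had reached 1/4 in some block, beside 138 of 293 (47.1%) in the comparison set. At 8-9 h the median member stood at 31.4% of its later peak (comparison set 44.7%). The latest were ML073040a at 11.8%, ML073039a at 12.4%, ML210024a at 16.1% and ML135623a at 16.2%. At the other end, ML071411a (97.4%), ML071412a (94.5%), ML128441a (79.7%) and ML005716a (77.1%) were nearly as high at 8-9 h as at 11-13 h. For these 4 the 11-13 h block was only slightly the highest over both pools together. In pool 6 alone 8-9 h was above 11-13 h for ML071411a (42.3 and 24.6 CPM), ML071412a (43.6 and 33.7 CPM) and ML005716a (30.5 and 23.9 CPM). In pool 12 it was below for these genes, at 15.8 and 39.7, 26.0 and 43.1, and 16.0 and 40.2 CPM. ML128441a was higher at 11-13 h in both pools.

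The 10 h embryo of pool 12 was not used by the rule, and the members differed in how far they had risen there. In 23 of 37 (62.2%) it lay above every 8-9 h embryo of its pool, beside 159 of 293 (54.3%) in the comparison set and 18.3% of the 3441 genes with at least 30 CPM at 11-13 h. Its median level was 56.3% of the 11-13 h level of its pool, against 66.9% in the comparison set and 90.3% over the 3441 genes. ML00442a reached 160 CPM at 10 h, after 40.2, 8.74 and 15.4 CPM at 8, 8.5 and 9 h in the same pool. ML276917a reached 887 CPM, after 429, 169 and 519 CPM. ML006313a was at 129 CPM, above the 23.3 to 64.8 CPM of its 8-9 h embryos and below the 286 CPM of the lowest 11-13 h embryo of its pool. Not every member had risen. ML03702a measured 66.4 CPM at 10 h, after 82.7, 69.9 and 118 CPM. In 4 members the 10 h embryo was under 10% of the 11-13 h level of its pool, namely ML22322a with 0 reads, ML311635a (0.749%), ML05961a (1.78%) and ML148948a (3.47%). In 4 others it was already above that level, namely ML00856a (114%), ML071317a (129%), ML128441a (173%) and ML210024a, which was low at 11-13 h in this pool. This is 1 embryo, and the 8-9 h and 11-13 h embryos of its pool helped to choose the genes, which favours a 10 h level above 8-9 h.

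To test the rise and the fall in embryos that had not chosen the genes, the rule was applied in each pool alone and the resulting genes were looked up in a fit to the other pool's libraries. Pool 6 alone gave 40 genes and pool 12 alone 48. They shared 14 genes, which is 35% of the first list and 29.2% of the second, and those 14 are all members. Of the 37 members, 21 were in the pool 6 list, 28 in the pool 12 list and 2 (ML42311a and ML124218a) in neither. With both pools and without 20 h replicate 1, 62 genes met the rule, 36 of them members.

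The rise from 0-1 h was called for most genes in the other pool. Of the 40 genes chosen in pool 6, 35 were higher at 11-13 h than at 0-1 h in pool 12 (edgeR quasi-likelihood test, adjusted p below 0.05 and at least 2-fold), beside 23.5% of all 10017 genes tested. Of the 48 chosen in pool 12, 48 were higher in pool 6, beside 30.2% of 9331 genes. The median log2 fold changes were 6.74 and 6.58, against 0.50 and 0.46 over all genes. Examples in pool 12 are ML073039a, with a log2 fold change of 11.01 (SE 1.45, edgeR adjusted p = 1.73e-05) and no read at 0-1 h in that pool, and ML006313a with 10.14 (SE 1.17, edgeR adjusted p = 3e-06). A fold change of a gene without reads in one group depends on edgeR's prior count and is no bound. At 20 h the same lists were still above 0-1 h for 26 of 40 genes (18.4% of all genes tested) and 26 of 48 (23.9%). Each of these fits has 1 embryo of 20 h, which is assumed to vary like the embryos of the other blocks.

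The step from 8-9 h to 11-13 h was called less evenly. In pool 12, 10 of the 40 genes were higher (2.51% of all genes tested), with a median log2 fold change of 1.47 against 0.09 over all genes. In pool 6, 1 of the 48 was higher (2.71% of all), with a median of 0.42 against 0.03. That gene, ML073039a, was called both ways. It went from 15.5 to 123 CPM in pool 12 (log2 value 2.58, SE 0.69, edgeR adjusted p = 0.0386) and from 20.2 to 165 CPM in pool 6 (3.14, SE 0.53, edgeR adjusted p = 0.00294). In pool 12 the call of ML073039a was lost without any one of 5 of the 6 embryos compared, with an edgeR adjusted p up to 0.146, and also under total-count scaling (0.067), a test against 1.5-fold (0.0724) or without the shallow libraries (0.0745). Among the other genes called in pool 12, singled out after their values were seen, ML006313a went from 61.4 to 524 CPM (3.40, SE 0.65, edgeR adjusted p = 0.00437). ML00857a went from 15.8 to 199 CPM (3.61, SE 0.70, edgeR adjusted p = 0.0052). ML00442a went from 32.2 to 282 CPM (3.73, SE 0.76, edgeR adjusted p = 0.0081). In pool 6 these 3 genes had smaller log2 fold changes of 1.67, 1.58 and 1.68, which were not called. The count of 10 was 4 without 8 h or 8.5 h replicate 2, 5 without 9 h or 13 h replicate 2, 6 without 12 h replicate 2 and 16 of 66 when 12 h replicate 1 was left out of the choice of genes. The count of 1 ranged up to 5 of 54, without 11 h replicate 2. Without 7, 7.5 or 9 h replicate 1 it was 3 of 48, without 12 h replicate 2 it was 4 of 60, and without 13 h replicate 2 it was 2 of 54.

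The single 10 h embryo of pool 12 gave no call. For 10 h minus 8-9 h, 0 of the 40 genes were higher with edgeR or DESeq2 (0.02% of all genes), and 10 had an unadjusted p below 0.05 (4.32% of all). For 11-13 h minus 10 h, 0 were higher with either tool (0.00998% of all), and 3 had an unadjusted p below 0.05 (6.35% of all).

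The fall to 20 h was mostly not called in the other pool. In pool 12, 1 of the 40 genes was lower at 20 h than at 11-13 h (0.0399% of all 10017 genes). That gene was ML065752a, at 309 CPM and 9.67 CPM, a log2 fold change of -5.27 (SE 1.10, edgeR adjusted p = 0.0336). The call was lost without 11 h replicate 2 (edgeR adjusted p = 0.0765), without 12 h replicate 2 (0.125), without the shallow libraries (0.0564) and with genes of at least 10 CPM on average (0.0597). In pool 6, 0 of the 48 were called (0% of all 9331 genes), with 6 of 48 at an unadjusted p below 0.05 (8.55% of all). DESeq2 called 2 of 40 and 0 of 48. In pool 12, 10 of 40 had an unadjusted p below 0.05, of either sign, beside 8.14% of all genes. The medians were nevertheless below those of all genes, at -0.89 against -0.11 in pool 12 and -1.69 against -0.07 in pool 6. As a description, 20 h lay below 11-13 h for 29 of the 40 genes in pool 12, beside 55.4% of all genes of at least 30 CPM. It lay at 1/3 of 11-13 h or less for 15 (4.16% of all genes of at least 30 CPM). In pool 6, 46 of 48 lay below (55.2% of all) and 28 at 1/3 or less (3.31% of all). In pool 12, 9 of the 40 genes were instead highest at 20 h. Each pool has 1 embryo of 20 h. In simulated counts of this design, rises and falls at 20 h were mixed and every gene had the same spread. There 34% of the 8-fold changes and 1% of the 3-fold changes were called. Falls were not counted apart from rises, so these shares do not give how often a fall alone would be called.

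**Figure D2:**
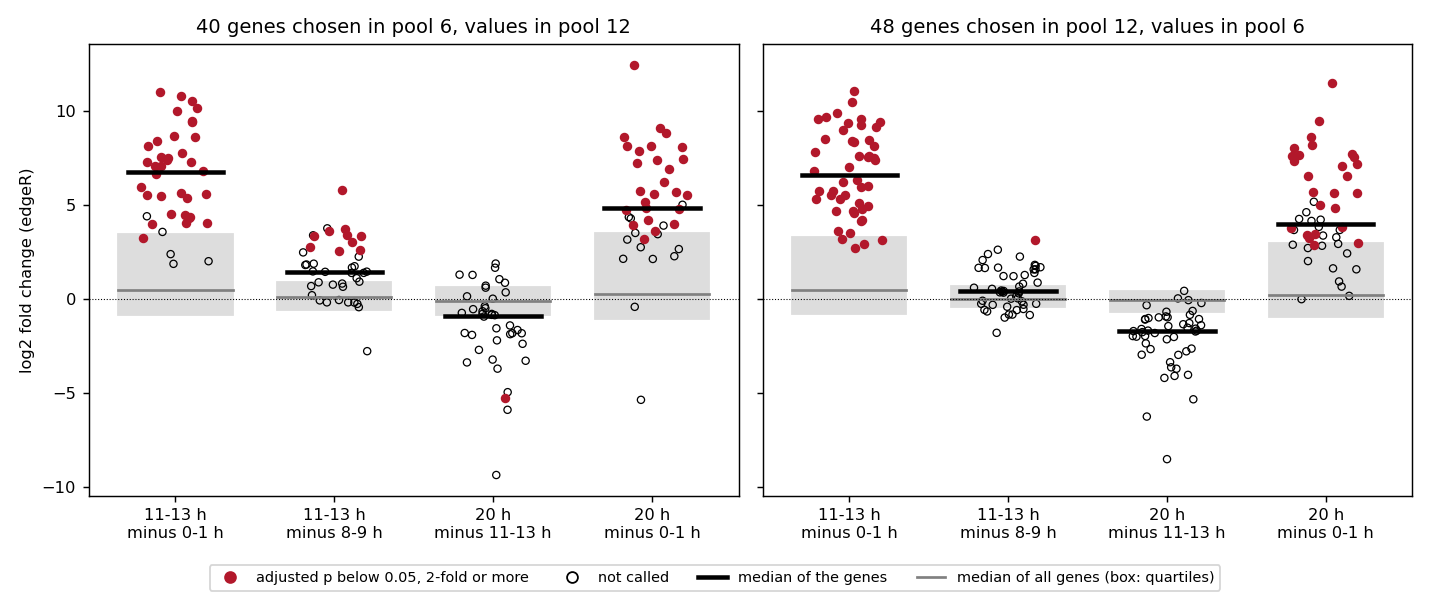
Log2 fold changes between time blocks of the 40 genes chosen in pool 6, measured in pool 12 (left), and of the 48 genes chosen in pool 12, measured in pool 6 (right); each point is 1 gene, and red points passed the edgeR test at an adjusted p below 0.05 and 2-fold. Black bars are the medians of the chosen genes, grey boxes and lines the quartiles and median of all genes tested: the median rise from 0-1 h stands above the grey box, and the median fall to 20 h lies below that of all genes, with 1 red point in pool 12 and 0 in pool 6.

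Within the 11-13 h window, whose order the rule did not use, no change was called. In each pool the 11 h library held more reads than the 13 h library. The summed block therefore favours genes high at 11 h, and so negative values of 13 h minus 11 h. In a fit of all 40 libraries with a level for each time, 0 of 37 members passed edgeR's test between 13 h and 11 h (0% of 9576 genes tested), 1 had an unadjusted p below 0.05 (1.94% of all genes), and DESeq2 called 0. The median log2 fold change was -0.29 for 13 h minus 11 h, against -0.03 over all genes, with 28 of the 37 negative. The lowest were ML071317a at -2.06 (SE 1.18), ML01563a at -1.81 (SE 1.06), ML311635a at -1.71 (SE 1.47) and ML05961a at -1.47 (SE 1.45). The highest were ML210024a at 4.16 (SE 1.59), ML073039a at 0.77 (SE 0.78), ML148948a at 0.58 (SE 1.14) and ML05602a at 0.48 (SE 1.09). Each of these 8 values had an edgeR adjusted p of 1. The values of ML210024a, ML148948a and ML05602a changed sign when 1 embryo of 13 h was left out, to -0.84, -3.86 and -0.086. With 2 embryos per time, a simulated 8-fold change was called for 46% of changed genes.

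Between 8 h and 9 h the members lay more to one side, which the choice of the genes favours. The rule kept the summed 8-9 h block below the peak block. In each pool the 8 h library held more reads than the 9 h library and weighed more in that sum. Genes low at 8 h and high at 9 h therefore passed more easily. All genes tested were not chosen in this way, so they are no matched background here. The median log2 fold change for 9 h minus 8 h was 1.30, against 0.02 over all genes, with 27 of 37 positive. In edgeR 0 of 37 passed the adjusted threshold (0% of 9576), while 15 of 37 had an unadjusted p below 0.05 (13 positive, 2 negative), beside 5.12% of all genes, and DESeq2 called 1, ML210024a, as lower. The neighbours ML00856a and ML00857a, which are described further on, illustrate it and were singled out after their values were seen. ML00856a measured 46.4 and 29.8 CPM at 8 h and 88.1 and 152 CPM at 9 h. ML00857a measured 20.1 and 10.1 CPM at 8 h and 99.5 and 38.9 CPM at 9 h. In both genes the 9 h embryos lay above the 8 h embryos. For ML05961a, ML311635a and ML22322a the positive value rested on 9 h replicate 1 alone, and without it the value was -0.82, -5.88 and -3.81. ML148948a and ML124218a too were high at 9 h only in that embryo, at 59.0 and 42.6 CPM, against 0 and 1.02 CPM in pool 12. ML034653a and ML073040a stayed positive whichever embryo of 8 or 9 h was left out, at 8.40 and 2.46 or more. For the other positive members no such refit was looked at. Among them, ML02078a, ML074251a and ML05602a measured 122, 62.5 and 27.0 CPM in 9 h replicate 1, against 2.05 CPM each in pool 12. In ML009410a, ML28183a, ML22661a and ML22662a both 9 h embryos lay above both 8 h embryos.

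Embryos of nearly the same age differed widely in some of these genes. The ratio of the highest to the lowest of the 6 embryos of 11-13 h, with the lowest taken at no less than 3 reads, had a median of 4.31 over the 37 genes, 2.36 over the comparison set and 2.06 over the 3441 genes with at least 30 CPM. It was at least 10 for 11 members (29.7%), 18 of 293 in the comparison set (6.14%) and 73 of the 3441 (2.12%). This measure was chosen after the values were seen, and the rule's block sums can admit a gene that is high in a few embryos only. Of the 11 members, ML22322a, ML034653a, ML01563a, ML20572a and ML124218a were lowest in the 12 h embryo of pool 6. ML311635a, ML05961a and ML148948a were lowest in the 13 h embryo of pool 6. In ML03702a, ML071317a and ML210024a the lowest embryo was of pool 12. The 11 ratios thus share a few embryos and are not separate cases.

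**Figure D3:**
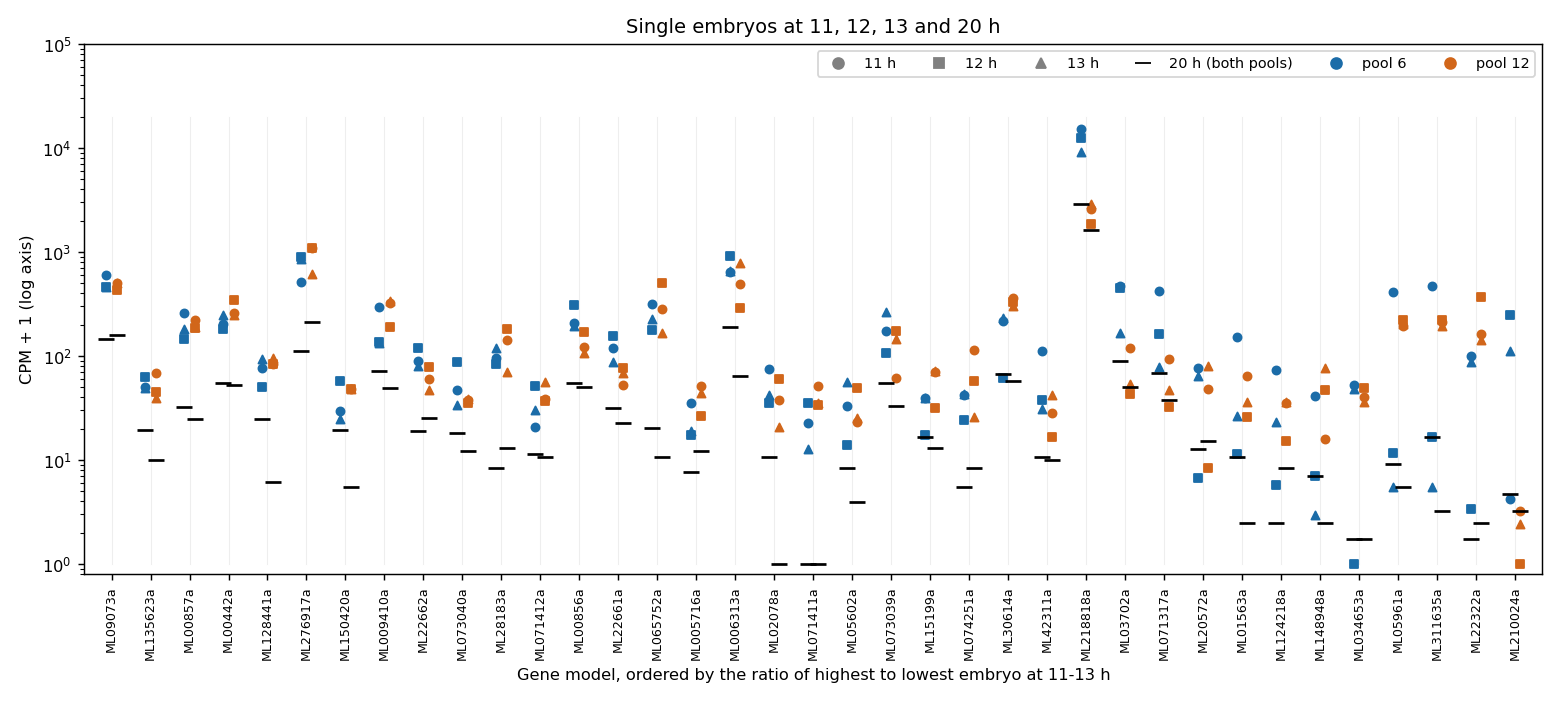
Levels (CPM + 1, log axis) of each of the 37 genes in the 6 embryos of 11 h (circles), 12 h (squares) and 13 h (triangles), blue for pool 6 and orange for pool 12, with the 2 embryos of 20 h as black bars. Genes are ordered from left to right by the ratio of the highest to the lowest embryo at 11-13 h: those on the left form a tight group above the black bars, and in the 6 on the right some embryos lie at or near the 20 h level.

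ML311635a and ML05961a switched together. At a threshold of 50 CPM, chosen after their values were seen, both were above it in the same 7 of 39 libraries (10 h replicate 1 left out) and neither was above it alone. Those 7 were 7.5 h of pool 12, 8.5, 9 and 11 h of pool 6, and 11, 12 and 13 h of pool 12. Where high, ML311635a measured 130 to 502 CPM and ML05961a 115 to 438 CPM. Elsewhere they measured at most 15.6 and 10.8 CPM, including the pool 6 embryos of 12 h (15.5 and 10.8 CPM) and 13 h (4.54 CPM each). In the 7 high libraries the ratio of the 2 genes stayed between 0.957 and 1.15. By their IDs, read as described further on, the 2 genes carry different scaffold numbers. Whether they share reads as near-identical copies or lie at 1 place in the genome was not tested.

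ML22322a was above 50 CPM in those 7 libraries and in 10 others, 6 of them up to 5 h. It measured 125 and 119 CPM at 2 h, 126 and 94.6 CPM at 3 h, and 118 CPM in the pool 12 embryo of 4 h against 0 in the pool 6 embryo. At 7.5 h it measured 168 and 155 CPM. At 8 h both embryos were below 1 CPM, and at 12 h the pool 6 embryo had 2.36 CPM and the pool 12 embryo 371 CPM. The gene was therefore high in some embryos and low in others at several ages, and sometimes differed between same-age embryos. Each library is another embryo, so a change over time and a difference between embryos cannot be told apart here.

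ML210024a owes its place to 2 embryos. It measured 244 CPM at 12 h and 110 CPM at 13 h in pool 6, and 0 to 3.17 CPM in the other 4 embryos of 11-13 h. Outside this window its highest value was 33.2 CPM, at 10 h in pool 12. ML034653a was the reverse: 5 embryos of 11-13 h measured 34.9 to 51.4 CPM and the 12 h embryo of pool 6 had 0 reads.

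**Figure D4:**
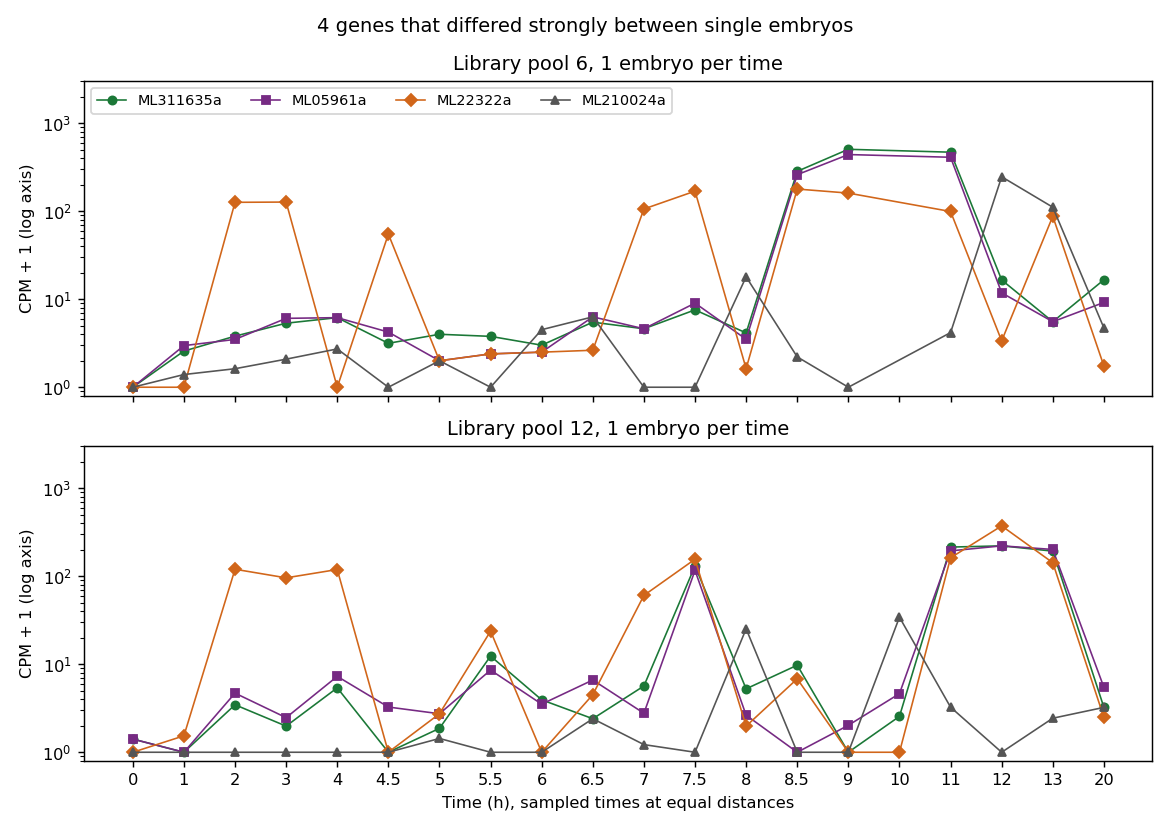
Levels (CPM + 1, log axis) of ML311635a (circles), ML05961a (squares), ML22322a (diamonds) and ML210024a (triangles) by time in h, with sampled times at equal distances, in the embryos of pool 6 (top) and pool 12 (bottom). The lines of ML311635a and ML05961a lie on each other and rise above 100 CPM in 7 libraries, ML22322a rises with them and also at 2 to 4.5 h, and ML210024a stands out at 12 and 13 h of pool 6.

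Between the 2 library pools at 11-13 h, which the rule summed, no member was called in the fit over all blocks (0 of 37 with edgeR, 4 with an unadjusted p below 0.05 beside 8.17% of all genes, and 0 with DESeq2), beside 0.0666% of 10518 genes called higher and 0.019% called lower in pool 12. The member furthest apart was ML210024a, at 118 CPM in pool 6 and 1.29 CPM in pool 12 (log2 fold change -6.23, SE 1.45, edgeR adjusted p = 0.127). It was called without the filter on low counts (edgeR adjusted p = 0.00702) and without the shallow libraries (0.0457). When only the 11-13 h libraries were fitted, with time and pool as terms, ML210024a did not pass the filter, the other 36 were tested and 2 were lower in pool 12 (0.495% of 7472 genes) and 0 higher (0.0937%). These were ML218818a, with a log2 fold change of -2.04 (SE 0.25, edgeR adjusted p = 0.0169), and ML03702a, with -2.08 (SE 0.32, edgeR adjusted p = 0.0273). In both genes each of the 3 pool 6 embryos exceeded each of the 3 pool 12 embryos. In the fit over all blocks their log2 fold changes were -2.02 (SE 0.92, edgeR adjusted p = 0.572) and -2.05 (SE 0.83, edgeR adjusted p = 0.504). The pool goes with the replicate embryo at every time, so a difference of the pools and of the embryos in them cannot be told apart.

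Some members sit beside each other. The IDs consist of ML, a 4-digit scaffold number and a gene number, a reading borne out by 1747 of 1748 scaffold numbers whose gene numbers run from 1 to their count. By these numbers 8 of the 37 members (21.6%) have another member as next gene model, in 4 pairs. In the comparison set it is 41 of 293 (14.0%), but such a share grows with the size of a set, so the 2 shares are not comparable. Of the 60 other gene models next to a member, 51 had a read and 17 of those (33.3%) were highest at 11-13 h, beside 19.5% of all gene models with a read.

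The 4 pairs kept different proportions. ML22661a and ML22662a reached 97.98 and 81.6 CPM at 11-13 h, and their ratio stayed between 0.871 and 1.45 over the 6 embryos. ML00856a and ML00857a reached 193 and 199 CPM, with a ratio of 0.549 to 2.11. ML073039a reached 146 CPM and its neighbour ML073040a 48.8 CPM, with a ratio of 1.22 to 7.90. These 2 were also the latest to rise by the 8-9 h share given above. ML071411a and ML071412a reached 31.3 and 37.9 CPM, and were as high at 8-9 h as described above. At 20 h ML071411a had 0 reads in both embryos while ML071412a measured 10.4 and 9.67 CPM. Whether the authors counted by strand is not stated, so reads of overlapping neighbours cannot be told apart.

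At the edges of the rule, ML05602a was just inside the level of 30 CPM with 30.0 CPM and ML03057a just outside with 29.0 CPM. For the rise, ML005716a was just inside at 8.83-fold and ML018020a just outside at 6.74-fold. For the fall, ML15199a kept 32.3% of its peak at 20 h and was inside, while ML06951a kept 33.7% and was outside. Among genes highest at 11-13 h, 973 failed only the level, 293 only the fall and 5 only the rise.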

How the data were processed

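RNA of 40 single embryos was sequenced by CEL-Seq. The authors deposited counts (whole reads) for each gene model in each embryo, and other values in a sheet of samples (times, barcodes, index numbers), which gave the library pools. The submitters' processing notes list HTSeq 0.5.4p3, Bowtie2 2.1.0 and CASAVA 1.8. Build, annotation, strand setting and any merging of unique molecular identifiers: not given in the sources used here. Ambiguous reads (median 3.16% of an embryo's reads) were left out of gene counts. How reads of near-identical gene copies were counted was not looked at, so the levels of such genes are uncertain. The 5 totals that name no gene stayed out of library sizes, and a median of 30.8% of reads fell in gene models.

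CPM values are counts over the sum of gene models. The members, their description and the tests were chosen with earlier results of these data known. Named members follow a rule: the 8 highest at 11-13 h, the 6 largest falls, the extremes of the 8-9 h share, of the 13 h minus 11 h value and of the 20 h to 0-1 h ratio, the genes at the thresholds, neighbours by ID, and genes called between pools. The 4th neighbour pair and the genes said to be singled out were chosen after their values were seen.

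Tests used edgeR 4.0.16 in R 4.3.3 on the counts: filterByExpr (count minimum 10), TMM scaling, quasi-likelihood F tests, Benjamini-Hochberg adjustment over all genes of the fit, and calls at an adjusted p below 0.05 with a log2 fold change of at least 1 in size. Models had a level per block (1 pool), per time (all 40 libraries) or per block and pool (38 libraries). The fits to pool 6 left out its 10 h library. Genes of a list that were filtered count as not called. Standard errors are the log2 fold change over the square root of F. Alternatives were DESeq2 1.42.0, other scalings and filters, a test against 1.5-fold, leaving out libraries under 600000 reads or 1 library at a time, and pool as a block. The pairing by pool comes from the sheet's index numbers. Same-age differences between pools, over 5613 genes, had a median correlation of 0.17 between 171 pairs of times (range -0.23 to 0.67), with 122 over 0.1. The models were tested on simulated data, with changes of both signs and the same spread for every gene. P-values measure the spread between these embryos, which may be technical in part. In the models with a level per block, embryos of neighbouring ages stand as replicates. Their spread therefore also holds any change between those ages.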

Additional observations from a re-analysis of the deposited data

Results flagged for a closer look

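Among the 6 embryos of 11-13 h, Dixon's test at the 95% level was applied to each of the 37 genes, and 5 had 1 embryo far from the others. Chance flags about 1 in 20 groups. ML034653a had 0 CPM in the 12 h embryo of pool 6. ML071317a had 424 CPM and ML42311a 111 CPM in the 11 h embryo of pool 6. ML073040a had 86.8 CPM in the 12 h embryo of pool 6, and ML074251a had 113 CPM in the 11 h embryo of pool 12. These 5 values come from 3 embryos.

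The 10 h library of replicate 1, which the comparisons between blocks do not use, held reads of members above the floor of 3 reads for 3 genes, with 16 reads of ML218818a, 5 of ML006313a and 5 of ML276917a. In all, 7 members had a read there.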

How the results depend on the processing

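The number of members was 83 with a level of at least 10 CPM and 21 with 60 CPM, 88 with 20 h at most 1/2 of the peak and 21 with 1/4. It ranged from 27 to 62 when 1 library was left out, with 62 (36 of them members) without 20 h replicate 1 and 27 without 11 h replicate 1. Without a filter on low counts, 13 h minus 11 h gave 1 higher member, 9 h minus 8 h gave 4 higher and 1 lower, the pools 1 lower, the step 18 of the pool 6 list and 5 of the pool 12 list, the fall 7 of the pool 6 list, and 10 h minus 8-9 h 3 higher. DESeq2 gave 1 lower member at 9 h minus 8 h, 2 falls of the pool 6 list and 2 steps of the pool 12 list. With a mean of at least 10 CPM, the fall gave 0 of the pool 6 list and the step 2 of the pool 12 list. Without the shallow libraries the pools gave 1 lower member, the step 4 and the fall 0 of the pool 6 list. The cause was not tested. With the replicate block (pool as a term), the pools gave 2 lower members and the time contrasts kept 0 calls.

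With 1 library left out, the rise was called for 25 to 61 (pool 6 list) and 36 to 59 genes (pool 12 list), the step for 4 to 16 and 1 to 5, the fall for 0 to 1 and 0, and 20 h minus 0-1 h for 18 to 38 and 18 to 36. The highest rise count, 61 of 66, was without 12 h replicate 1, which lengthens the list. The time and pool contrasts, refitted only without libraries of the times compared, stayed at 0. Log2 values that changed sign ranged from -0.086 to 0.91 for ML05602a, -3.86 to 1.55 for ML148948a and -0.84 to 5.16 for ML210024a (13 h minus 11 h), and from -0.82 to 7.70 for ML05961a, -3.81 to 7.40 for ML22322a and -5.88 to 6.99 for ML311635a (9 h minus 8 h).

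The 20 h values rest on 2 embryos and 2690266 reads, where 3 reads stand for 1.12 CPM, so small residual levels were not measurable.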
